A study of Mus musculus with 4 samples.

Results

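The 4 vesicular transporters that fill synaptic vesicles with glutamate or GABA, Slc17a6 (VGLUT2), Slc17a7 (VGLUT1), Slc17a8 (VGLUT3) and Slc32a1 (VGAT), were followed across cell classes of the mouse prefrontal cortex (PFC) from birth to adulthood. The genes were chosen by name and are 4 of the 29281 genes listed in any of the files. The study dissociated PFC tissue of female C57BL/6 mice (C57BL/6J in the text of the study) at postnatal day 1 (P1), 4 (P4), 10 (P10) and 84 (adult) and captured single cells with the BD Rhapsody 3′ whole transcriptome assay, which counts each captured RNA molecule once by its unique molecular identifier (UMI). The labels name no treatment and no genetic modification in any group. The methods name 2 mice per age, and the cells of each age form 1 library without a map from cells to mice, so each age was 1 sample and no test between ages could be made.

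Vesicular transporters use the proton gradient across the vesicle membrane to load transmitter, and a neuron needs one of them to release glutamate or GABA. VGLUT1 and VGLUT2 are known as the main glutamate transporters of cortical projection neurons and of thalamic and other subcortical neurons, respectively, and VGLUT2 is also known from immature cortical neurons. VGLUT3 is found in scattered cell groups, some of which release a second transmitter, and VGAT loads GABA in inhibitory neurons.

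In all, 59918 cells passed the filter of the methods, 11545 to 19014 by library, with a median of 11065 to 25800 UMIs per cell by library. The P1 library stood apart from the others in ways that touch each comparison with it. It was processed with a later pipeline version than the others, and 4 Y-linked genes came to 109.5 CPM (counts per 1000000 counts) at P1 and to 0.114 to 0.176 CPM later, although the methods name only female mice. The part of this library difference in the results was not tested. Levels at each later age are therefore given beside those at P1, whereas ranks among all genes and the counts of the pathway lists compare adult with P1 alone and rest on this library. Libraries P4, P10 and adult shared 319 to 368 cell barcodes pairwise, and P1 shared 12 to 20 with each. A library held 9867 to 23669 UMIs of Slc17a6, 11587 to 303491 of Slc17a7, 470 to 7497 of Slc17a8 and 5603 to 22412 of Slc32a1.

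Cells were clustered within each library without the 4 transporters or their pathway genes, and a cluster whose marker genes matched a class was given the name of that class with the ending -like. Intratelencephalic (IT)-like, layer 5 pyramidal tract (L5 PT)-like and layer 6 corticothalamic (L6 CT)-like cells were found at every age, and layer 5 near-projecting (L5 NP)-like cells from P4. A level is the CPM of a gene in the summed UMIs of a class, with mitochondrial and ribosomal protein genes left out of the total. Brackets hold exact 95% intervals (Poisson for CPM, Clopper-Pearson for shares, conditional binomial for log2 ratios), and these cover counting error only, not the spread between animals. Rises and falls are differences between libraries whose counting intervals are apart, and none has a replicate check. Levels of different genes were set against each other only as the Slc17a6 share, the percentage of Slc17a6 UMIs among Slc17a6 and Slc17a7 UMIs. The assay is designed to count each captured 3′ end once, but capture may differ between the 2 transcripts, and the part of intronic reads, which were not excluded at P1, was not tested. The genes span 49.1 kb (Slc17a6) and 12.2 kb (Slc17a7). The share served to compare ages and classes, not to count molecules.

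Slc17a6 and Slc17a7 lie on the same strand of chromosome 7 in the GRCm38 build. GENCODE vM21 places Slc17a6 at chr7:51622006-51671119 and Slc17a7 at chr7:45163949-45176142, Slc17a8 at chr10:89574020-89621253 on the minus strand and Slc32a1 at chr2:158610767-158615748 on the plus strand. The RefSeq windows around the first listed start sites of Slc17a6 (chr7:51621580-51621879) and Slc17a7 (chr7:45163671-45163970), 250 bases before to 50 after the start on the plus strand of GRCm38.p6, are printed because the Slc17a6 share of these genes is the main quantity below. Capitals mark GC boxes, the only one of 4 searched motifs with a match in either window.

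Slc17a6: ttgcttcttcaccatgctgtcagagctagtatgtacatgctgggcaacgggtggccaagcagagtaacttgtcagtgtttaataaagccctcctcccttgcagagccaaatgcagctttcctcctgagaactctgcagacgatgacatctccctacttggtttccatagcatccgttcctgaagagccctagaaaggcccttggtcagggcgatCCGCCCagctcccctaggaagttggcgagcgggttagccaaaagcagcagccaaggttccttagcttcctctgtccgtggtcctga
Slc17a7: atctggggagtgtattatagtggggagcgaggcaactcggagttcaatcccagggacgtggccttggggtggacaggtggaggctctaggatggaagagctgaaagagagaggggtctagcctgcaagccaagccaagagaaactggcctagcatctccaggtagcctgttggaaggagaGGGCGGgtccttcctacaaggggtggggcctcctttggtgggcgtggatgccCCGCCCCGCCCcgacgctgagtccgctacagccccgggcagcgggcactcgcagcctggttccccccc

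The Slc17a7 window held 3 GC boxes (GGGCGG on either strand) at 70, 18 and 13 bases before the start, the last pair overlapping by 1 base, and 63.7% of its bases were G or C. The Slc17a6 window held 1 GC box, 36 bases before the start, at 53.7% G or C. A GC box was present in 35.7% of all 32851 RefSeq windows of this length, and the median window had 52.7% G or C. The letters of 1 form of the E-box (CAGATG, present in 17.2% of windows), a cAMP response element (TGACGTCA, 1.79%) and a TATA box (TATAAA, 13.6%) were found on neither strand of the 2 windows. Other forms of the E-box were not searched. RefSeq lists a further Slc17a6 start with the window chr7:51624387-51624686, which held 1 E-box of the searched form and no GC box. No GENCODE transcript of Slc17a6 starts within 50 bases of the start site of either Slc17a6 window.

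Slc17a7 rose in every excitatory class between each pair of ages, whereas the Slc17a6 level of the IT-like class as a whole stayed nearly flat until P10. From P1 to P4 Slc17a7 also rose outside the neuronal classes. Microglia-like cells went from 6.71 to 109 CPM and astrocyte-like cells from 12.1 to 80.5 CPM. The part of such UMIs in the P1 to P4 rise of the excitatory classes was not tested. IT neurons project within the telencephalon, and the study calls them the most abundant excitatory neurons of the cortex. In IT-like cells Slc17a7 was, in order of age, at 28.8 (27.9 to 29.8), 195 (192 to 197), 1234 (1226 to 1241) and 2172 CPM (2162 to 2182). Slc17a6 was, in order of age, at 87.9 (86.3 to 89.6), 83.6 (81.8 to 85.4), 89.3 (87.2 to 91.4) and 17 CPM (16.1 to 17.9). The Slc17a6 share therefore fell from 75.3% (74.6 to 76.0) at P1 to 30.0% (29.5 to 30.6) at P4 and 6.75% (6.60 to 6.90) at P10. In adult it was 0.775% (0.733 to 0.818). Until P10 the Slc17a6 level of the class as a whole hardly moved, but this depended on the largest P1 cluster. That cluster was at 131 CPM (128 to 135), and the other P1 IT-like clusters were at 62.1 (59.8 to 64.3) and 63.7 (61.0 to 66.5). On the log2 scale Slc17a7 was 6.24 higher (6.19 to 6.28) in adult than at P1 and 3.48 higher (3.46 to 3.5) than at P4. For Slc17a6 the log2 ratio was −2.37 (−2.46 to −2.29) for adult over P1, −2.30 (−2.39 to −2.22) over P4 and −2.40 (−2.48 to −2.31) over P10. Of the 10077 genes with at least 10 CPM at 1 of both ages in IT-like cells, 17.8% were at least 2-fold higher and 28.4% at least 2-fold lower in adult than at P1. Slc17a7 ranked at percentile 99.1 of all these ratios and Slc17a6 at percentile 7.65. The Slc17a7 ratio thus lay near the top of all genes of this class, whereas a fall of the size seen for Slc17a6 was shared by many genes.

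**Figure D1:**
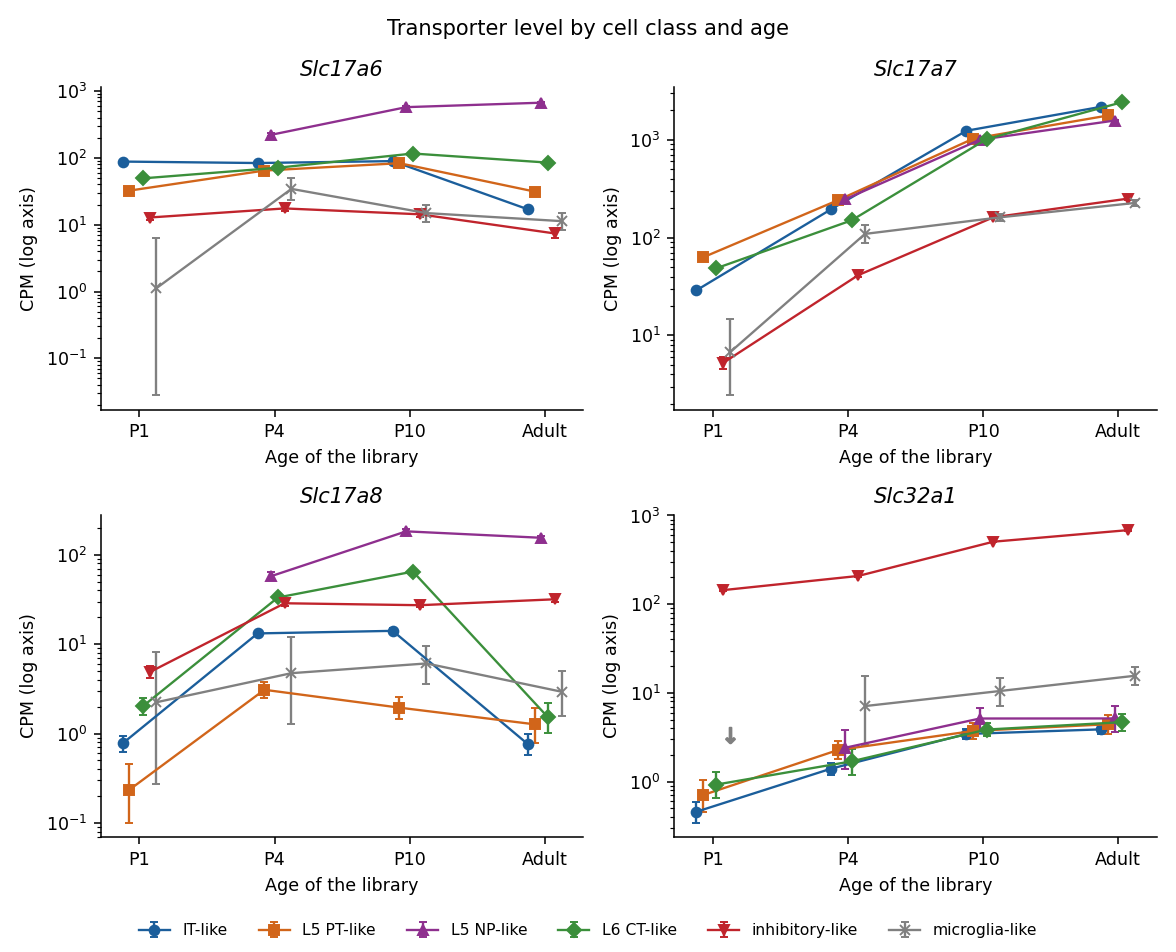
Level of each transporter (CPM, log axis) by age of the library in 4 excitatory-like classes, pooled inhibitory-like cells and microglia-like cells, with 95% counting intervals as bars; the arrow marks a class without a UMI, at the level of 3 UMIs. Slc17a7 climbs in every excitatory class and, at lower levels, in inhibitory-like and microglia-like cells. Slc17a6 falls in adult IT-like cells to 17 CPM but stands at 668 CPM in adult L5 NP-like cells. Slc32a1 is high in inhibitory-like cells alone among the classes drawn.

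The classes differed in their Slc17a6 share at each age. At P1 the Slc17a6 share was 34.0% (32.3 to 35.6) in L5 PT-like cells, which project to subcortical targets. It was 50.4% (48.8 to 51.9) in L6 CT-like cells, which project to the thalamus, and 75.3% in IT-like cells. These intervals do not overlap. With cells weighted equally the P1 shares were lower but in the same order, at 22.8%, 32.7% and 67.8%. At P4 the share was 21.1% (20.3 to 21.9) in L5 PT-like cells, 30.0% in IT-like cells and 32.2% (30.9 to 33.5) in L6 CT-like cells. The levels of both genes in these classes were above those of P4 microglia-like cells. Their shares, however, lay within the microglia-like interval, at 24.0% (16.7 to 32.6). Slc17a7 in P4 microglia-like cells was at 56.0% of the IT-like level, and the part of such UMIs in the P4 shares was not tested. The P4 order of IT-like and L6 CT-like cells changed with the setting. At Leiden resolution 1.0 the P4 share was 40.2% in IT-like and 31.9% in L6 CT-like cells, and with a stricter cell filter 40.6% and 31.9%. With cells weighted equally it was 36.8% and 26.1%, and without cells marked by Scrublet 31.8% and 32.3%. The share was 7.51% (7.22 to 7.82) in L5 PT-like cells and 10.3% (upper bound 10.6) in L6 CT-like cells at P10, above the 6.75% of IT-like cells. In adult it was 1.74% (1.59 to 1.89) in L5 PT-like and 3.40% (3.23 to 3.57) in L6 CT-like cells. The adult shares of IT-like, L5 PT-like and L6 CT-like cells lay below the 4.78% of microglia-like and the 3.59% of endothelial-like cells. The L6 CT-like share was within the endothelial-like interval (3.09 to 4.16), although its Slc17a6 level, 84.8 CPM, stood above those cells. The adult order of IT-like and L5 PT-like cells was not read, because their Slc17a6 levels did not stand clear of those cells. The P10 share was lower in IT-like than in L5 PT-like cells, but at resolution 1.0 the intervals overlapped, at 7.38% (7.19 to 7.58) and 7.51% (7.22 to 7.82).

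In L5 PT-like cells Slc17a6 rose before it fell, from 32.3 CPM (30.4 to 34.2) at P1 to 64.5 (61.8 to 67.3) at P4 and 83.1 (79.7 to 86.6) at P10, and it was at 31.3 (28.7 to 34.1) in adult. Slc17a7 in the same cells was at 62.7, 241, 1023 and 1769 CPM in order of age. In L6 CT-like cells Slc17a6 was at 49.3 CPM (47.2 to 51.4), 71.1 (67.6 to 74.7), 116 (113 to 119.9) and 84.8 (80.6 to 89.1) at the 4 ages, and Slc17a7 at 48.6, 149.8, 1013 and 2411. From P1 to P4 Slc17a6 also rose outside the neuronal classes. It went from 1.12 to 34.3 CPM in microglia-like and from 17.3 to 36.4 CPM in astrocyte-like cells. The part of such UMIs in the P1 to P4 rises of L5 PT-like and L6 CT-like cells was not tested. At P1 the L6 CT-like class joined a cluster of 1346 cells with Slc17a6 at 57.3 CPM (54.7 to 59.9) and one of 450 cells at 24.8 (21.9 to 28.0). The P10 cluster had Ctgf among its leading genes, whereas cells led by Ctgf formed clusters of their own at P1 and P4. The class may therefore not hold the same cells at each age. The adult L6 CT-like level of Slc17a6 thus exceeded that at P4 by 0.25 on the log2 scale (0.15 to 0.36), in contrast to IT-like cells. Adult L6 CT-like cells also had the highest Slc17a7 level of the 4 excitatory classes, followed by IT-like, L5 PT-like and L5 NP-like cells. All neighbours in this order were separated by more than their counting intervals. The adult IT-like clusters were, however, at 2303 (2291 to 2315) and 1761 CPM (1742 to 1780.0). The latter interval overlapped that of L5 PT-like cells (1748 to 1789).

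L5 NP-like cells, deep neurons with only short-range projections, kept and raised Slc17a6. Their Slc17a6 level was 221 CPM (210.4 to 232) at P4, 573 (558 to 589) at P10 and, in adult, 668 (649 to 686), which is a log2 rise of 1.59 (1.51 to 1.68) from P4 to adult. Slc17a7 rose as well, from 245 CPM (234 to 257) to 998 (978 to 1019) and 1571 (1543 to 1599). The Slc17a6 share accordingly went from 47.4% (45.7 to 49.1) to 36.5% (35.7 to 37.3) and 29.8% (29.1 to 30.5). These 670 cells made up 4.76% of the adult cells and held 53.1% of all adult Slc17a6 UMIs, whereas IT-like cells, 28.5% of the adult cells, held 13.7%. Slc17a6 was among the 10 leading genes of the L5 NP-like cluster at P10 and in adult, although it was kept out of the genes used for clustering. At P1 no cluster passed as L5 NP-like. A P1 cluster of 450 cells, counted as L6 CT-like, had Tle4, Etv1, Bcl11b, Fezf2 and Tshz2 among its leading genes. These were also among the leading genes of the P4 L5 NP-like cluster. Whether the P1 cluster held L5 NP cells was not tested.

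**Figure D2:**
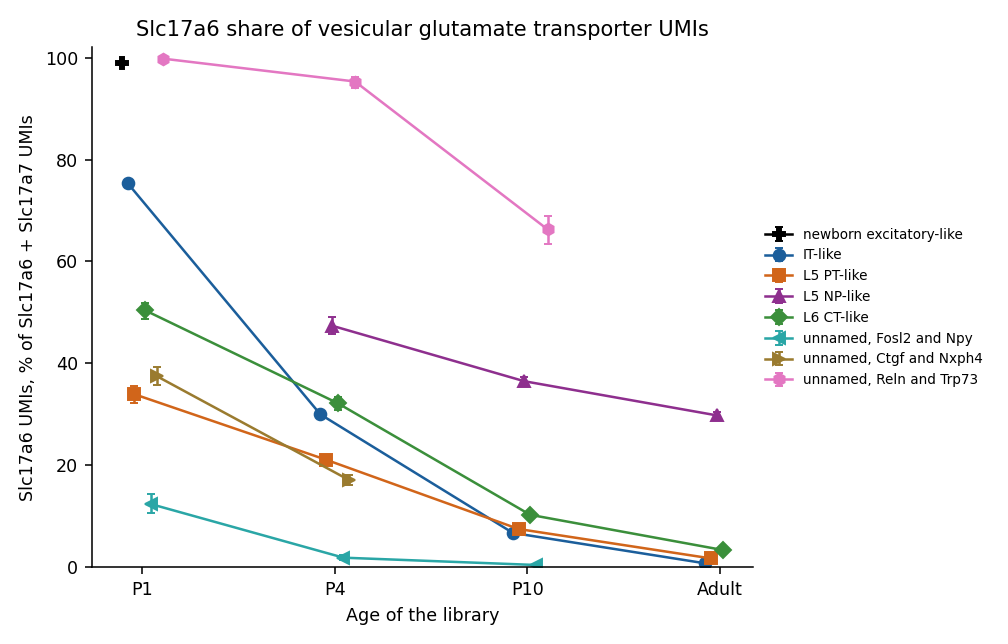
Slc17a6 UMIs as a percentage of Slc17a6 and Slc17a7 UMIs (linear axis) by age of the library, with exact 95% intervals, for 5 excitatory-like classes and 3 groups of unnamed clusters given by their leading genes. The share falls from 75.3% to 0.775% in IT-like cells, stays at 29.8% in adult L5 NP-like cells, and is at 12.4% already at P1 in the clusters led by Fosl2 and Npy.

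Clusters within the IT-like class differed widely in their Slc17a6 share at P1 and P4. Of the P1 IT-like clusters, the largest (2085 cells, led by Syt4, Bhlhe22 and Cntn2) had a Slc17a6 level of 131 CPM, a Slc17a7 level of 13.1 CPM, near the 12.1 CPM (8.91 to 16.1) of P1 astrocyte-like cells, and a Slc17a6 share of 90.9%. Its marker score was 1.0 for IT and 0.82 for newborn excitatory cells, so that its name was a close choice, and without it the P1 IT-like share was 62.3%. The others, led by Inhba and Ntf3 (1340 cells) and by Tshr and Grp (905 cells), had shares of 58.6% and 68.5%. At P4 the share was 72.2% in the cluster that Bhlhe22 and Eif1b led (1920 cells), 51.8% in that led by Ntf3 and Aldh1a3 (2165 cells) and 13.1% in that led by Cyp26b1 and Slc30a3 (2528 cells). In the first of these Slc17a7 was at 37.4 CPM, below the 109 CPM of microglia-like and the 80.5 CPM of astrocyte-like cells at P4, and was not read as expression. In the cluster led by Ntf3 and Aldh1a3 it was at 120.1 CPM (117 to 124), within the microglia-like interval (87.8 to 134), and was not read as expression either. The other P4 cluster, of 351 cells, led by Caln1 and Camk2a, had 13.3%. At P10 the IT-like clusters had shares of 8.82% (led by Aldh1a3 and Ntf3) and 5.78% (led by Slc30a3 and Vstm2l), and in adult of 0.873% (led by C1ql3 and Nptxr) and 0.369% (led by Wfs1, with Calb1 among its leading genes). Bhlhe22 and Cntn2 encode a transcription factor and an adhesion molecule, and Slc30a3 the vesicular zinc transporter. The value of the IT-like class at P1 and P4 therefore depends on which clusters it holds.

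Newborn excitatory-like cells at P1, marked by Eomes, the transcription factor of intermediate progenitors, lay at the other end. In these 458 cells Slc17a6 was at 665 CPM (646 to 684) and Slc17a7 at 7.11 CPM (5.31 to 9.32), a Slc17a6 share of 98.9% (98.6 to 99.2). They made up 3.97% of the P1 cells and held 20.6% of the P1 Slc17a6 UMIs. Slc17a6 was detected in 96.9% of them, compared with 59.5% of IT-like cells at P1, or in 67.0% and 16.1% when each cell was thinned to 2000 UMIs. No cluster of the later libraries passed as newborn excitatory-like.

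Several clusters that no marker list named carried the extremes of both genes. Clusters led by Fosl2, a transcription factor of the activator protein 1 family, and Npy, a neuropeptide, had less Slc17a6 than any of the named excitatory classes. Their Slc17a6 level was 7.87 CPM (6.74 to 9.14) in 693 cells at P1, 5.21 (3.81 to 6.95) in 779 cells at P4 and 7.16 (6.16 to 8.26) in 1149 cells at P10, whereas Slc17a7 was at 55.4, 271 and 1565 CPM. The Slc17a6 share was 12.4% (10.7 to 14.3), 1.89% (1.39 to 2.51) and 0.455% (0.392 to 0.525). At P4 the Slc17a6 level lay below that of microglia-like cells, 34.3 CPM (23.0 to 49.3), and at P10 below their 14.9 CPM (10.8 to 20), so that the Slc17a6 UMIs of these clusters read as background at both ages. At P1 the level was above the 1.12 CPM (0.0283 to 6.23) of the 34 microglia-like cells but below the 18.2 CPM (12.9 to 25) of endothelial-like and the 17.3 CPM (13.4 to 21.9) of astrocyte-like cells, and so within the range of cells outside the neuronal classes. At resolution 1.0 the P4 cluster led by Npy, Vegfd and Fosl2 held 1294 cells, with Slc17a6 at 10.5 CPM (9.06 to 12.1) and a share of 3.49% (3.01 to 4.01). No adult cluster had these leading genes at the resolution used. At the finer resolution of 1.0, an adult cluster of 376 cells led by Rxfp1 and Vegfd, with Oprk1 among its leading genes, had a share of 0.222%. Vegfd and Oprk1 were also among the leading genes of the P10 cluster. The adult IT-like class held 4010 cells at the resolution used and 3709 at resolution 1.0. It may thus hold cells of this kind that the earlier IT-like classes leave out, which was not tested. With the clusters led by Fosl2 and Npy counted as IT-like, the IT-like share was 69.8%, 27.9% and 5.01% at P1, P4 and P10.

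Clusters led by Reln, a secreted protein of the marginal zone, together with Ndnf, Nhlh2 and Trp73, had a higher Slc17a6 level than any named class of the same library. Trp73 is known from Cajal-Retzius cells, for which no marker list had been set, and the clusters are given here by their leading genes. Slc17a6 was at 862 CPM (824 to 902) in 54 cells at P1, 899 (856 to 945) in 124 cells at P4 and 936 (872 to 1003) in 76 cells at P10, and it was detected in 100%, 99.2% and 100% of the cells. The intervals of neighbouring ages overlapped. Slc17a7 was at 1.85 CPM (0.505 to 4.75) at P1 and 44.8 (35.4 to 55.8) at P4, where microglia-like cells had 109 CPM (87.8 to 134). At P10 it was at 476 CPM (431 to 524), above the 161 CPM (147 to 176) of microglia-like cells and close to the 438 CPM (421 to 456) of endothelial-like cells. Whether this P10 signal is expression was not tested. No adult cluster had these leading genes.

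Clusters led by Ctgf and Nxph4 carried more Slc17a7 than any named class at the early ages. Slc17a7 was at 155 CPM (148 to 163) in 330 cells at P1 and 594 CPM (577 to 613) in 293 cells at P4, compared with 62.7 and 241 CPM in L5 PT-like cells, the highest of the named excitatory classes at P1. The P4 interval of L5 NP-like cells, at 245 CPM, included the level of L5 PT-like cells. The Slc17a6 level was 93.4 CPM (88.0 to 99) at P1 and 123 (115 to 131) at P4, with a share of 37.5% (35.8 to 39.3) and 17.1% (16.1 to 18.2). These clusters made up 2.86% of the P1 cells and held 16.2% of the P1 Slc17a7 UMIs. At resolution 1.0 a P10 cluster of 176 cells led by Ctgf and Cplx3 passed as L6b-like and had a share of 6.06%.

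Single cells showed how the transcripts of both genes were distributed. To compare shares of cells across depths, 2000 UMIs were drawn from every cell, leaving out 13 of 4010 adult IT-like cells and 27 of 6964 at P4. After thinning, 15.8% of P1 IT-like cells held UMIs of Slc17a6 only, 4.16% of Slc17a7 only and 0.277% of both. At P4 these shares were 11.7%, 22.6% and 2.87%, at P10 1.94%, 71.7% and 13.8%, and in adult 0.0751%, 94.7% and 2.73%. Cells holding both genes were thus most frequent at P10 in the IT-like class. In L5 NP-like cells the share of cells with both rose throughout, from 10.6% at P4 to 50.8% at P10 and 68.9% in adult. Among adult L6 CT-like cells 17.1% held both after thinning, and among adult L5 PT-like cells 5.31%.

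In cells with at least 10 UMIs of Slc17a6 and Slc17a7 together, the share of each cell could be computed. At P10, 2984 of 3242 IT-like cells reached this number, their median Slc17a6 share was 5.56% (quartiles 0 and 10.5), and 74.3% of them held both genes, compared with 56.5% of the 85 endothelial-like cells that reached it. Of the P1 IT-like cells, only 306 of 4330 reached it, with a median share of 100% and 41.8% holding both. The 123 such L5 NP-like cells at P4 had a median share of 45.0% (quartiles 34.3 and 60.0), and 97.6% of them held both, but so did 80.8% of the 26 astrocyte-like cells that reached it. In 632 adult L5 NP-like cells the median was 30.8% (quartiles 20 and 40), and 97.2% held both, compared with 27.5% of 120 endothelial-like cells. In 3847 adult IT-like cells 85.7% held Slc17a7 only. After thinning to 2000 UMIs, both genes were found in 10.6% of L5 NP-like and 2.35% of microglia-like cells at P4, and in 68.9% and 0.813% in adult. Deep cells reach the minimum of 10 UMIs more easily, so these shares describe the cells that reached it.

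**Figure D3:**
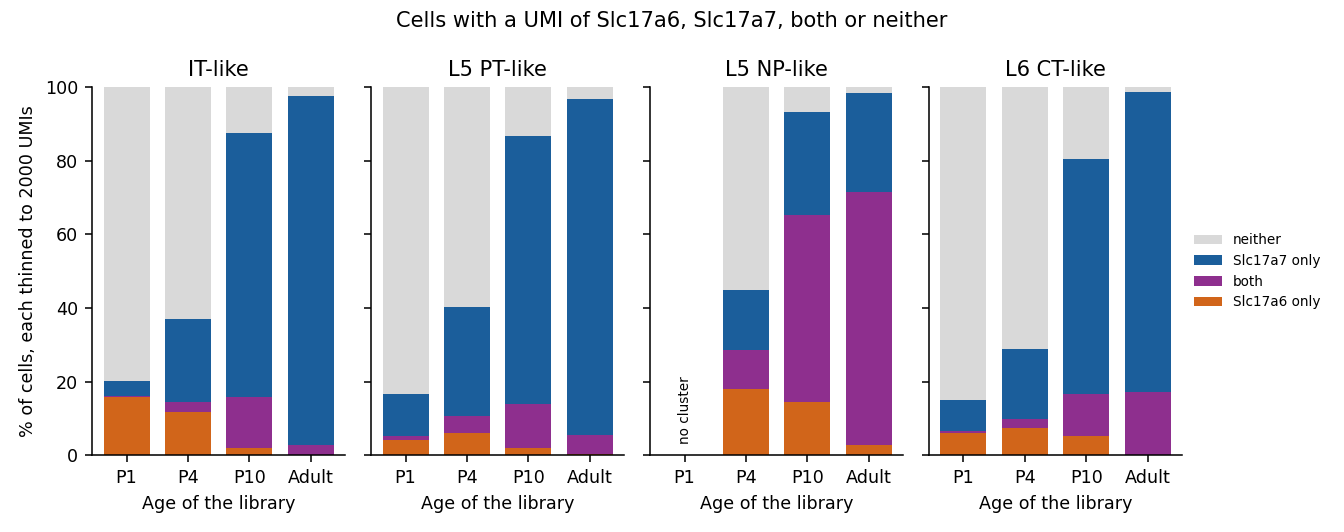
Percentage of cells (linear axis) with at least 1 UMI of Slc17a6 only, of both genes, of Slc17a7 only or of neither, after each cell was thinned to 2000 UMIs, by class and age of the library. Cells with both reach 13.8% of IT-like cells at P10 and 68.9% of L5 NP-like cells in adult.

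Transporter UMIs in cells outside the neuronal classes were taken as the level below which a signal was not read as expression. The source of these UMIs was not tested. Microglia-like cells, which are not known to make these transporters, had a median of 4327 UMIs per cell in adult, and Slc17a7 was at 226 CPM (212 to 240.0) there and detected in 48.7% of them, compared with 99.8% of adult IT-like cells, whose median was 20024 UMIs. Their level was 10.4% of that in IT-like cells. For 12 abundant neuronal genes, among them Snap25 and Nrgn, the same percentage ranged from 12.1% to 24.6%. Slc17a7 in adult inhibitory-like cells (250.3 CPM, 244 to 257) was close to the microglia-like level, and after thinning it was found in 22.1% of these cells, below the 33.4% of microglia-like cells. Slc17a6 in adult IT-like cells, at 17 CPM, was above the 11.3 CPM (8.41 to 14.9) of microglia-like cells but below the 33.1 CPM (28.4 to 38.4) of endothelial-like cells. After thinning it was found in 2.80% of IT-like and 2.44% of microglia-like cells. Whether adult IT-like cells still made Slc17a6 could thus not be read at this depth. The adult levels of L6 CT-like cells (84.8 CPM, 17.3% of cells after thinning) and of L5 NP-like cells (668 CPM, 71.6%) stood above all of these, whereas the 31.3 CPM of L5 PT-like cells (5.60% after thinning) lay within the endothelial-like interval. Slc17a6 in inhibitory-like cells ranged from 7.39 to 17.5 CPM over the 4 ages and was at or below the microglia-like level from P4 on.

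Slc32a1 rose at every step in inhibitory-like cells. It was, in order of age, at 144 (upper bound 148), 208 (203 to 213), 506 (499 to 513) and 684 CPM (674 to 695), with a log2 ratio of 2.25 (2.21 to 2.30) for adult over P1 and 1.72 (1.68 to 1.76) for adult over P4. Of 10206 genes in inhibitory-like cells, 17.8% were at least 2-fold higher and 27.7% at least 2-fold lower in adult than at P1, and Slc32a1 ranked at percentile 94.1. Gad1 and Gad2, which encode the enzymes that make GABA and were kept out of both clustering and naming, were at 481 and 424 CPM at P1 and at 3370.1 and 2285 CPM in adult. At P4 Gad2 was lower than at P1, at 302 CPM (296 to 308), while Slc32a1 was higher. Slc32a1 in IT-like cells was between 0.456 and 3.88 CPM, below that of microglia-like cells at P4, P10 and adult.

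All inhibitory subclasses carried Slc32a1. Sst-like cells, which mark interneurons that target dendrites, had 147 CPM (142 to 151) at P1 and 236 (228 to 243) at P4, and Vip-like cells, many of which inhibit other interneurons, had 133 (125 to 142) and 184 (175 to 195). These early Sst-like values depended on the clustering, since at resolution 1.0 the P4 level was 313 CPM (302 to 324) and the P1 class was divided into clusters at 155 and 119 CPM. At P10 the level was 586 CPM (572 to 601) in Sst-like cells and 486 (476 to 496) in Pvalb-like cells, the fast-spiking interneurons, whereas in adult it was 634 (617 to 651) in Sst-like and 782 (763 to 801) in Pvalb-like cells. The order of these subclasses was therefore reversed between P10 and adult, and both differences exceeded the counting intervals. Adult Lamp5-like cells were at 671 CPM (639 to 703) and adult Vip-like cells at 596 (573 to 619.7), and both intervals overlapped that of Sst-like cells. Gad1 varied far more between the same adult classes, from 1751 CPM in Sst-like to 7077 CPM in Lamp5-like cells. Slc32a1 was detected in 85.2% of Sst-like cells at P1 and in 99.6% of them in adult, or in 22.8% and 69.0% after thinning. Microglia-like cells had it in 4.66% of adult cells, or 2.71% after thinning.

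**Figure D4:**
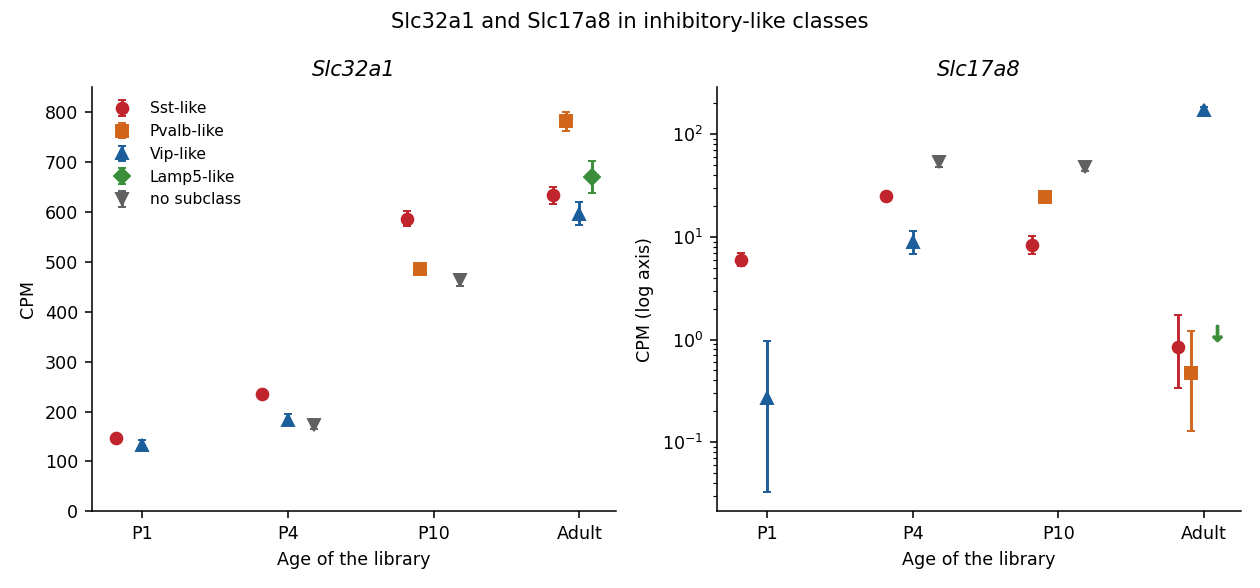
Level of Slc32a1 (CPM, linear axis) and Slc17a8 (CPM, log axis) in inhibitory-like classes by age of the library, with exact 95% counting intervals as bars; the arrow marks a class without a UMI, at the level of 3 UMIs. Slc32a1 lies between 596 and 782 CPM in the 4 adult classes, whereas adult Slc17a8 is at 173 CPM in the Vip-like cluster and at most 0.844 CPM in the others.

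Slc17a8 was the rarest of the transporters and moved between classes with age. In L6 CT-like cells it was, in order of age, at 2.02 (1.61 to 2.49), 33.3 (30.9 to 35.8), 64.9 (62.2 to 67.6) and 1.52 CPM (1.01 to 2.20), and in IT-like cells at 0.775, 13.2 (12.5 to 13.9), 14.1 (13.3 to 15) and 0.763 CPM. It was thus transient in L6 CT-like cells, with a log2 ratio of −5.42 (−6.01 to −4.88) for adult over P10. In IT-like cells the ratio was −4.21 (−4.61 to −3.83), but the P10 level of this class was not clear of cells outside the neuronal classes. Its interval overlapped those of P10 endothelial-like cells, at 10.4 CPM (7.83 to 13.5), and neural progenitor-like cells, at 10.7 (6.91 to 15.8). At P10, L6 CT-like cells held 30.9% of all Slc17a8 UMIs of the library. Microglia-like cells had 4.74 CPM (1.29 to 12.1) at P4 and 6.09 (3.61 to 9.62) at P10, and the adult level of L6 CT-like and IT-like cells was below their 2.94 CPM (1.57 to 5.03). Among the P4 IT-like clusters Slc17a8 was at 24.8 CPM in the one led by Cyp26b1 and Slc30a3 and at 1.49 CPM in the one led by Bhlhe22 and Eif1b. At P10 it was at 24.2 CPM in the cluster led by Slc30a3 and Vstm2l and at 1.95 CPM in the one led by Aldh1a3 and Ntf3.

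L5 NP-like cells again differed, since they kept Slc17a8 in adult. The level was 57.7 CPM (52.2 to 63.6) at P4, 183 (175 to 192) at P10 and, in adult mice, 155 (146 to 164), and the log2 ratio of adult over P4 was 1.43 (1.26 to 1.59). They held 54.2% of the adult Slc17a8 UMIs. Slc17a8 was detected in 53.3% of adult L5 NP-like cells and in 1.4% of adult L6 CT-like cells, or in 24.1% and 0.176% after thinning. In adult, L5 NP-like cells were the one named class with all 3 vesicular glutamate transporters above the level of microglia-like and endothelial-like cells.

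In inhibitory-like cells as a whole Slc17a8 was, in order of age, at 4.86 (4.18 to 5.63), 28.7 (26.8 to 30.6), 27.3 (25.8 to 29.0) and 31.8 CPM (29.5 to 34.1), but the cells that carried it changed. With cells weighted equally the adult level was 20.3 CPM. At P4 it was at 53.3 CPM (48.4 to 58.5) in a cluster without a subclass led by Erbb4 and Lhx6. It was at 24.9 (22.6 to 27.5) in Sst-like and at 8.86 (6.82 to 11.3) in Vip-like cells. The Vip-like level lay within the P4 microglia-like interval (1.29 to 12.1) and was not read as expression. At P10 Pvalb-like cells had 24.7 CPM (22.5 to 27.1), spread over 143 of 780 cells, and Sst-like cells 8.37 (6.75 to 10.3). The Sst-like level lay within the P10 intervals of microglia-like (3.61 to 9.62) and endothelial-like cells (7.83 to 13.5) and was not read as expression. In adult the level was 0.844 CPM (0.339 to 1.74) in Sst-like and 0.469 (0.128 to 1.2) in Pvalb-like cells, and 0 UMIs were counted in the 152 Lamp5-like cells, where a count of 0 allows up to 1.17 CPM. The adult Vip-like cluster had 173 CPM (161 to 186).

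The adult Vip-like signal came from few cells, and these were low in Vip itself. Of 328 cells, 18 had at least 10 Slc17a8 UMIs, with a median of 25 and up to 121 in 1 cell, and they held 99.6% of the Slc17a8 UMIs of the cluster. In these 18 cells Vip was at 4.24 CPM, whereas in the 307 cells without a Slc17a8 UMI it was at 7529 CPM. Adarb2, another marker set for Vip-like cells, did not differ in this way, at 538 and 566 CPM. The remaining markers set for Vip-like cells were not compared. Of the 6 markers set for Sncg-like interneurons, a class that no cluster reached, Cnr1, Cck, Krt73, Frem1 and Col19a1 were higher in the 18 cells, whereas Sncg itself was at 27.5 against 24.4 CPM. Cnr1, the cannabinoid receptor, was at 13260.2 against 4127 CPM, Cck, the peptide cholecystokinin, at 4978 against 2745 CPM and Krt73 at 485 against 12.5 CPM. Slc32a1 was at 758 CPM in the 18 cells and 573 CPM in those without Slc17a8, and Slc17a7 at 55.1 and 285 CPM. All of the 21 cells with a Slc17a8 UMI also held Slc32a1, as did 96.4% of the 307 cells without one, so that this share does not tell them apart. The 18 cells had a median of 31749 UMIs, compared with 11555 for the cluster, and Scrublet, a caller of doublets, marked 0 of them.

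The same arrangement was present at P10 in a cluster led by Vip and Cxcl14 that scored nearly alike for the Vip and Lamp5 markers and so had no subclass. Of its 718 cells, 17 had at least 10 Slc17a8 UMIs and held 85.1% of the 590 Slc17a8 UMIs of the cluster. Vip was at 46.1 CPM in these 17 cells and 1074 CPM in the 663 without a Slc17a8 UMI, and Adarb2 at 572 and 501 CPM. Cnr1 was at 8209.8 and 2223 CPM, Cck at 3008 and 714 CPM, and Krt73 at 446 and 16.0 CPM. Scrublet marked 2 of the 17. At resolution 1.0 this cluster was divided into 433 Lamp5-like cells with 564 Slc17a8 UMIs and 285 Vip-like cells with 26, so a subclass name for these cells depended on the clustering. The cells were selected by their Slc17a8 count, so these values are a description without a test. At P4 the cells with at least 10 UMIs held 5.23% of the Slc17a8 UMIs of the cluster led by Erbb4 and Lhx6. In that cluster 156 of 1104 cells had at least 1. It had other leading genes than the P10 cluster and a lower median, 7376 against 16578 UMIs per cell, so the percentages are not alike in kind. In the P4 Vip-like cluster, 1 of 792 cells had at least 10 Slc17a8 UMIs, and it held 17.2% of the 64 counted there.

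**Figure D5:**
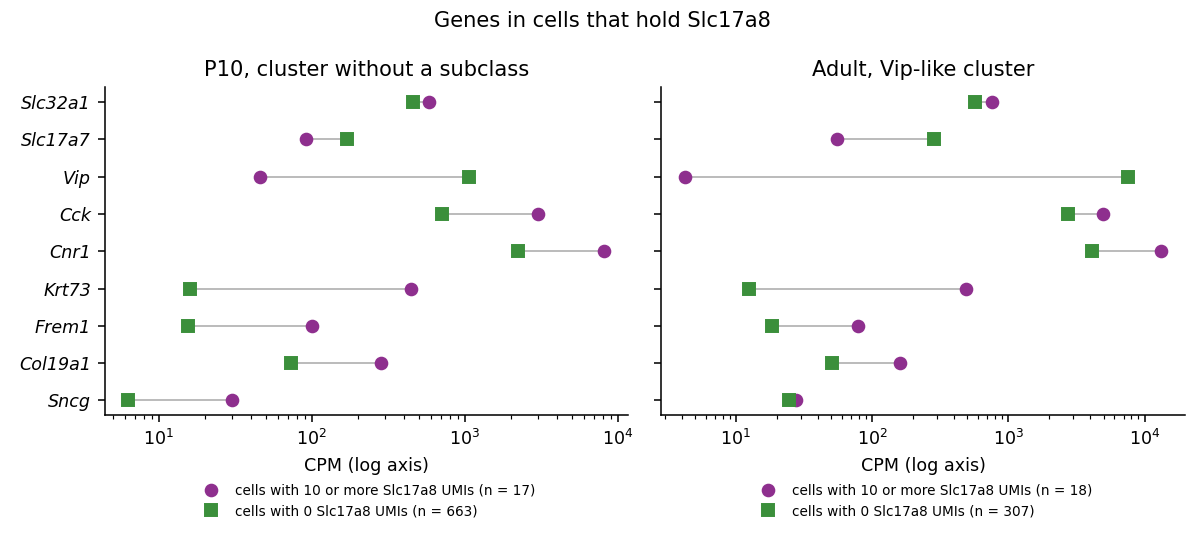
Level of 9 genes (CPM, log axis) in cells with at least 10 Slc17a8 UMIs (circles) and cells with 0 (squares), in the P10 cluster without a subclass and in the adult Vip-like cluster. In both ages Vip is lower and Cck, Cnr1, Krt73, Frem1 and Col19a1 are higher in the cells with Slc17a8, while Slc32a1 is high in both groups of cells.

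The genes whose pattern was most like that of each transporter were sought over 49 combinations of class and age with at least 50 cells, among 9778 genes, by Pearson's r of log2(CPM + 10). These points share libraries, so the values are descriptive. For Slc17a7 they were Sv2b, a synaptic vesicle protein (r = 0.974), Camk2a, a kinase of the postsynaptic density (0.949), Phyhip (0.938), Tuba4a, an α-tubulin (0.938), and Fam131a (0.934). For Slc17a6 the highest values were lower and included genes of cortical excitatory neurons, the transcription factors Neurod2 (0.701), Tbr1 (0.691) and Neurod6 (0.683) and the heparan sulfate enzyme Hs6st2 (0.690). Slc32a1 followed Gad1 (0.972) and Gad2 (0.964), the transcription factor Dlx6 (0.921), Rpp25 (0.916) and Pnoc, the precursor of nociceptin (0.864). For Slc17a8 they were Vwc2l (0.743), the serotonin receptor gene Htr2c (0.704), the receptor gene Trhr (0.693), its ligand gene Trh (0.688) and Cdhr1 (0.678). Tbr1, Neurod6, Dlx6, Vwc2l and Trhr belong to the marker lists that named the classes. Slc30a3, the zinc transporter of glutamatergic vesicles and also a marker set for IT-like cells, reached 0.679 with Slc17a7 and −0.237 with Slc17a6.

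The pathway around the transporters was described by lists of related genes, with the same share of genes past 2-fold as background (17.8% higher and 28.4% lower in IT-like cells, 17.8% and 27.7% in inhibitory-like cells). In IT-like cells 16 of 19 measured synaptic vesicle proteins were at least 2-fold higher in adult than at P1 and 1 was lower, with a median log2 ratio of 1.81 beside −0.27 over all genes. Synpr, synaptoporin, rose by 5.64 to 156 CPM, and Sv2b by 5.29 to 804 CPM, whereas Syn3 fell by 2.88 on the log2 scale to 4.91 CPM. Of the vesicular proton pump, which provides the gradient for all 4 transporters, 11 of 13 measured subunits were at least 2-fold higher and 0 lower, with a median of 1.95. Atp6v1g2, a neuronal subunit, was 4.52 higher and Atp6v1g1 had a log2 ratio of −0.52 (−0.55 to −0.48). Slc30a3 was at 0.576 CPM at P1 and 279.8 CPM in adult IT-like cells, 8.93 higher on the log2 scale (8.59 to 9.28), and was the 1 of 3 measured other vesicular transporters past 2-fold. It also belongs to the marker list that named IT-like clusters.

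In the glutamate cycle list 3 of 10 measured genes were higher and 3 lower in adult IT-like cells, with a median of −0.14. Slc1a2, the main glial glutamate transporter, was 5.09 higher and the aminotransferase Got1 3.16 higher, while the glutamine transporters Slc38a1 and Slc38a2 had log2 ratios of −1.16 and −1.28. Slc1a2 is abundant in astrocytes, and the part of free RNA in its value was not tested. Of GABA synthesis and uptake genes 3 of 6 were higher and 1 lower in IT-like cells. They included Gad1 at 19.8 CPM and Gad2 at 11.5 CPM in adult, both below the 74.3 and 44.6 CPM of adult microglia-like cells. Slc6a11, a mainly glial GABA transporter, had a log2 ratio of −2.07. The abundant neuronal genes had 7 of 12 higher and 3 lower (median 2.75), with Thy1 6.22 and Nrgn 5.66 higher and Stmn2 and Gap43 both at −1.39.

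The pooled inhibitory-like cells were Sst-like and Vip-like at P1 and Sst-like, Pvalb-like, Vip-like and Lamp5-like in adult, and the part of this difference in make-up in the ratios was not tested. In these cells 18 of 22 synaptic vesicle proteins were at least 2-fold higher and 1 lower (median 2.30, beside −0.25 over all genes). Cplx3 and Syt2 had log2 ratios of 7.31 and 6.28 and Syn3 of −4.39, and Syt2, Cplx3, Synpr, Sv2c and Slc30a3 are also markers of classes. Of the proton pump 10 of 13 were higher and 0 lower (median 1.74), led by Atp6v1g2 at 4.08 and Atp6ap2 at 2.86. All but 1 of 6 measured GABA synthesis and uptake genes were past 2-fold, 5 higher and 0 lower (median 2.11), with Gad1 at 2.81, the GABA-degrading enzyme Abat at 2.73 and Gad2 at 2.43, compared with 2.25 for Slc32a1. The glutamate cycle had 7 of 12 higher and 0 lower (median 1.21), with Got1 at 3.72, the glutaminase Gls2 at 3.51, Slc38a2 at −0.68 and Glud1 at −0.13. Among other vesicular transporters 1 of 3 was past 2-fold, Slc30a3 at 5.65, while Slc18b1 was at 0.54 and the sialic acid transporter Slc17a5 at −0.36. The abundant neuronal genes had 6 of 12 higher and 1 lower (median 1.36), with Thy1 at 5.58, Nrgn at 4.44, Stmn2 at −1.06 and Gap43 at −0.67. Nrgn and Slc30a3 are abundant in excitatory neurons, and the part of free RNA in their inhibitory-like values was not tested.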

How the data were processed

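UMI counts per cell and gene were used as deposited by the authors, who made them with the BD Rhapsody whole transcriptome pipeline. Per the file headers the version was 1.11 for P1 and 1.8 for the other libraries, while the methods name 1.11 for all. The methods give GRCm38 with GENCODE vM19, and the submitters' notes mm10. The P1 header calls the library P0 and states that intronic reads were not excluded. The filter kept cells that reached 1000 UMIs and 1000 genes and whose mitochondrial share did not exceed 15%.

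Each library was clustered with scanpy 1.11.5 (2000 variable genes, 30 principal components, 20 neighbours, Leiden at resolution 0.5 with leidenalg 0.10.2), leaving out the transporters and pathway genes. Clusters were named by their mean marker score. The score thresholds were set with the scores in view. Scrublet, at an expected doublet rate of 0.06, marked cells, which were removed only in an alternative. The doublet removal and cell annotation of the study were not used here. The members, marker lists and pathway lists were chosen with earlier results of these data known. The clusters described by their leading genes, among them those led by Fosl2 and Npy, and the Slc17a8-holding cells were chosen after their values were seen. Named genes were the 4 members, the 5 genes most correlated with each, and the 2 largest rises and falls of each list with Gad1, Gad2 and Slc30a3; some genes that this rule names are not reported here.

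UMIs were summed per class and age. With 1 library per age no test was made. Intervals at the 95% level were computed with scipy 1.17.1, and the limit for a count of 0 was 3 UMIs. Cells were thinned to 2000 UMIs for shares of cells. The interval and fold calculation was tested on simulated data with known changes. Alternatives were resolution 1.0, removal of cells marked by Scrublet, a stricter filter (2000 UMIs, 1500 genes, 10% mitochondrial), equal weight per cell, all genes in the denominator and, added after seeing the data, the clusters led by Fosl2 and Npy counted as IT-like and 1 P1 IT-like cluster left out.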

Additional observations from a re-analysis of the deposited data

Results flagged for a closer look

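The direction of change from P4 to adult differed between classes for Slc17a6 and Slc17a8, and these differences were not tested, since each age is 1 library. For Slc17a6 the log2 ratio of adult over P4 was 1.59 in L5 NP-like cells, −2.30 in IT-like, −1.04 in L5 PT-like and −1.24 in inhibitory-like cells. L5 NP-like cells thus stood apart from IT-like cells by 3.89, from L5 PT-like cells by 2.63 and from inhibitory-like cells by 2.83. The inhibitory-like level was, however, at or below that of microglia-like cells from P4 on. The adult IT-like (17 CPM) and L5 PT-like (31.3 CPM) levels did not stand above the 33.1 CPM of endothelial-like cells. For Slc17a8 the ratio was 1.43 in L5 NP-like, −4.11 in IT-like, −1.28 in L5 PT-like and −4.45 in L6 CT-like cells. The distances were 5.54 from IT-like, 2.71 from L5 PT-like and 5.88 from L6 CT-like cells. Adult Slc17a8 in IT-like (0.763 CPM) and L6 CT-like cells (1.52 CPM) was below the 2.94 CPM of microglia-like cells. The L5 PT-like level of Slc17a8 was 3.09 CPM at P4 and 1.27 CPM in adult, within the intervals of microglia-like cells or below them (1.29 to 12.1 at P4 and 1.57 to 5.03 in adult).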

How the results depend on the processing

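No paired analysis was possible because each age is 1 library. Of 44 alternatives, 34 moved a value beyond its counting interval and 10 did not. A reversed direction could be recorded only for the 19 alternatives of a log2 ratio, and all 19 kept the direction. The cause of each shift was not tested. The Slc17a6 share of IT-like cells at P1, P4 and P10 was 69.8%, 31.8% and 4.98% without the cells marked by Scrublet. With the stricter filter it was 76.1%, 40.6%, 6.17% and 0.893% at P1, P4, P10 and adult, and with cells weighted equally 67.8%, 36.8%, 7.46% and 0.958%. At resolution 1.0 it was 40.2%, 7.38% and 0.822% at P4, P10 and adult. With the clusters led by Fosl2 and Npy counted as IT-like, an alternative chosen after seeing the data, it was 69.8%, 27.9% and 5.01% at P1, P4 and P10. Without the P1 IT-like cluster that scored next as newborn excitatory, also chosen after seeing the data, the P1 share was 62.3% and the log2 ratios of adult over P1 were 5.84 for Slc17a7 and −1.89 for Slc17a6. The log2 ratio of adult over P1 for Slc17a7 in IT-like cells was 6.06 without cells marked by Scrublet, 6.51 with equal weights and 6.05 with the added clusters. For Slc17a6 it was −2.18, −2.47 and −2.16 under the same alternatives, −2.29 at resolution 1.0 and −2.23 with the stricter filter. For Slc32a1 in inhibitory-like cells it was 2.19 without cells marked by Scrublet, 2.18 with the stricter filter and 2.35 with equal weights. Adult Slc17a8 in inhibitory-like cells was 36.8 CPM without cells marked by Scrublet, 20.3 with equal weights and 29.4 with all genes in the denominator. Leaving out a replicate was not possible with 1 library per age.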

Other observations

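One P4 cluster held UMIs of a vesicular glutamate and a GABA transporter, largely in different cells. In 39 cells led by Zic1, Zic4 and Isl1, transcription factors known from subcortical forebrain, with Gad1 and Gad2 among the leading genes, Slc17a6 was at 236 CPM, Slc32a1 at 343 CPM and Gad1 at 952 CPM, while Slc17a7 was at 12 CPM. Slc17a6 was found in 10 of the cells, and 4 of these also held Slc32a1, compared with 96.6% of the 29 cells without Slc17a6. After thinning, Slc32a1 was found in 14.3% of 7 cells with Slc17a6 and in 53.1% of the others. The cluster was chosen after its values were seen, no marker list named it, and no cluster of the other libraries had these leading genes.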
